A study of Mus musculus with 9 samples.

Results

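NF-kB is a family of transcription factors that bind DNA as dimers, and IkB proteins are the ankyrin-repeat partners that hold those dimers or steer them. The 10 genes described here include the NF-kB subunit genes Rela, Rel, Relb and Nfkb2. The others are the genes of the cytoplasmic inhibitors Nfkbia, Nfkbib and Nfkbie and of the nuclear IkB proteins Nfkbiz, Nfkbid and Bcl3. The 10 were chosen by symbol, as genes of this family with a probe set on the array that names no other gene. Each had exactly 1 such probe set among the 19938 genes measured. Nfkb1, the gene of the p50 subunit, is not among the 10 and was not described.

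Dendritic cells were grown from mouse bone marrow and measured on 9 Affymetrix arrays, 3 for each of 3 groups. The knockdown LPS group (KD LPS) held cells transduced with a retroviral vector, pSir-delta U6CHisD, whose hairpin targets JmjD2d, selected in 2 mM histidinol and stimulated with 100 ng/ml LPS for 4 h. The wild-type LPS group (WT LPS) was untransduced and had the same LPS stimulation, and the unstimulated wild-type group (WT unstimulated) was untransduced and had no LPS. JmjD2d is the product of Kdm4d, a demethylase of lysine 9 of histone H3, and LPS is the bacterial lipopolysaccharide sensed by Toll-like receptor 4. Every group had first been held as progenitors with 3 cytokines (IL-6, IL-3 and SCF, 20 ng/ml of each) and then differentiated for 4 days with SCF (5 ng/ml) beside a 4% GM-CSF supernatant, followed by 4 days with the supernatant alone. No control hairpin and no unstimulated knockdown cells were analysed here, so transduction and selection cannot be told apart from loss of JmjD2d. The design text calls the cultures independent, and the labels name no strain, age or number of animals.

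In resting cells the cytoplasmic inhibitors keep NF-kB dimers out of the nucleus. After LPS, the IkB kinase complex phosphorylates these inhibitors, they are degraded, and the released dimers switch on inflammatory genes, including genes of the family itself. IkB alpha, the product of Nfkbia, is the textbook case of this feedback, since it is resynthesised within hours and takes dimers back out of the nucleus. The nuclear IkB proteins are made after stimulation and act on promoters already bound by NF-kB. In dendritic cells the pathway drives cytokine production and the costimulatory programme, and RelB is known for its part in dendritic cell maturation.

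Values are on the log2 scale as the authors deposited them after RMA, so a difference of 1 is a 2-fold change in array signal. Array signals give the order of groups within a gene but not between genes. A change is called at a Benjamini-Hochberg adjusted p under 0.05 over all 19938 genes in limma, a linear model with moderated variances (two-sided). Errors of differences are its standard errors (SE), and those of group means are standard deviations (SD). In cultures measured in bulk, more cells that express a gene and more RNA per cell cannot be told apart. In the wild-type groups the cultures numbered 2 stood apart for most of the 10 genes, so results that rest on them are also given without them.

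Kdm4d, the gene targeted by the hairpin, read 7.43, 7.11 and 7.40 in KD LPS cells, against 7.79, 7.54 and 7.74 in WT LPS cells and 7.24, 7.65 and 7.62 in WT unstimulated cells. The 3 knockdown values lay below the 3 wild-type values, as they did for 8.38% of all genes, but the difference of -0.37 (SE 0.13) did not pass the test (limma adjusted p = 0.278), and WT unstimulated replicate 1 lay inside the knockdown range.

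The promoters of the family were examined for the kB consensus, a motif of 10 bases that begins with GGG and ends with CC. Matches are given on the strand of the gene, so those on the opposite strand begin with GG and end with CCC. RefSeq promoter windows (GRCm38.p6) were found for 8 of the 10 genes, all but Relb and Nfkbiz, whose promoters were thus not searched. The 8 genes had 12 windows because Nfkb2 and Nfkbid had several starts. In the 250 bases before the start, on either strand, 7 of the 12 windows held a match, against 7.25% of all 32851 windows in the table. By gene, 5 of the 8 held a match in at least 1 window, against 8.23% of all 27025 genes. The windows of Nfkbia (chr12:55492648-55492897, minus strand), Nfkbie (chr17:45555450-45555699, plus strand) and Rel (chr11:23770970-23771219, minus strand) are printed 5′ to 3′ up to the base before the start, as examples of windows that held a match. Capitals mark the match, and in Rel 2 overlapping matches run together.
Nfkbia: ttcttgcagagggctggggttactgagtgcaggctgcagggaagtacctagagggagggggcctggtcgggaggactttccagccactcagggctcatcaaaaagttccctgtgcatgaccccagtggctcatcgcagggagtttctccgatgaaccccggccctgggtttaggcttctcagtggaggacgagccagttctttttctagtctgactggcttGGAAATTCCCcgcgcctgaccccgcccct
Nfkbie: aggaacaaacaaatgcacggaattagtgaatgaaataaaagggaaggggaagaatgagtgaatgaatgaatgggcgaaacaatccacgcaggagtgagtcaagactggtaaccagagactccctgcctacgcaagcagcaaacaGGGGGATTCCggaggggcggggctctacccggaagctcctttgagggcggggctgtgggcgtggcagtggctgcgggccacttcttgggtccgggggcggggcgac
Rel: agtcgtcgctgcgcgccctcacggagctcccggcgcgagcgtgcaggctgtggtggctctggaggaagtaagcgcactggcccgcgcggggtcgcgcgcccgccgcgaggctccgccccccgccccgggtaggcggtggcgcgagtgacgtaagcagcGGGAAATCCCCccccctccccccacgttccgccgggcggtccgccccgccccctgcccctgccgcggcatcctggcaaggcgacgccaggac
The Nfkbia match, GGAAATTCCC, lies 29 to 20 bases before the start, that of Nfkbie, GGGGGATTCC, 106 to 97 bases before it, and those of Rel between 92 and 82 bases before it. Nfkb2 held GGGAATTCCC and GGGGCTTTCC before the first of its listed starts, GGAATGTCCC before the next and GGGACTTTCC before the last, and Nfkbid held GGGACTTCCC and GGAATTCCCC before its middle start. The windows of Rela, Nfkbib and Bcl3 held no match with these letters. A match is a run of letters, not a measured binding site.

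LPS raised the RNA of most of the family in wild-type cells. Of the 10 genes, 9 rose, none fell, and Nfkbid did not pass the test, while 3.99% of all genes tested rose and 6.86% fell. The median log2 difference over the 10 genes was 1.26, against 0.04 over all genes. For all 10 genes the 3 WT LPS values lay above the 3 WT unstimulated values, as they did for 12.8% of all genes.

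The 4 subunit genes among the 10 all rose. Nfkb2, whose product is the precursor of the DNA-binding partner of RelB, read 12.22, 11.69 and 12.29 in WT LPS cells, against 10.38, 10.55 and 10.32 in WT unstimulated cells. The lowest LPS-treated culture was 1.14 above the highest unstimulated one. Nfkb2 rose 3.14-fold (log2 difference 1.65, SE 0.17, limma adjusted p = 0.00125). Relb, the subunit of the noncanonical pathway, read 10.16, 9.55 and 9.97 in WT LPS cells, against 8.63, 8.75 and 8.60 in WT unstimulated cells. It rose 2.35-fold (1.23, SE 0.14, adjusted p = 0.00211 in limma), with no overlap of the groups. Rel, the c-Rel subunit of lymphoid and dendritic cells, read 13.18, 12.49 and 13.04 in WT LPS cells, against 12.09, 11.57 and 11.73 in WT unstimulated cells. The groups did not overlap, and the gap between them was 0.39. Rel rose 2.15-fold (1.11, SE 0.19, limma adjusted p = 0.0102), and without WT LPS replicate 3 its adjusted p was 0.0508. Rela, the widely expressed subunit with the main activation domain, moved least of the 10 genes. Its values were 12.28, 11.94 and 12.25 in WT LPS cells, against 11.71, 11.68 and 11.63 in WT unstimulated cells. It rose 1.40-fold (0.48, SE 0.10, limma adjusted p = 0.0167). That call was lost without WT LPS replicate 1 (0.0614) or 3 (0.0731) and without WT unstimulated replicate 1 (0.051) or 3 (0.0686).

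The genes of the cytoplasmic inhibitors rose in 3 of 3 cases, with SE of 0.09 to 0.15. Nfkbia read 13.24, 12.86 and 13.24 in WT LPS cells, against 11.17, 11.54 and 11.25 in WT unstimulated cells. The gap between the groups, 1.32, was larger than the range within either. It rose 3.47-fold (log2 difference 1.79, SE 0.15, limma adjusted p = 0.00055). Nfkbib, the gene of IkB beta, read 13.13, 12.77 and 13.10 in WT LPS cells, against 11.66, 11.89 and 11.55 in WT unstimulated cells. Its 3 LPS-treated cultures were all above the unstimulated ones. It rose 2.45-fold (1.30, SE 0.12, limma adjusted p = 0.000762). Nfkbie, the gene of IkB epsilon, another feedback inhibitor, read 12.14, 11.90 and 12.18 in WT LPS cells, against 10.98, 11.00 and 10.88 in WT unstimulated cells. It rose 2.18-fold (1.12, SE 0.09, limma adjusted p = 0.00055), with no overlap of the groups and the smallest SE of the 10 genes.

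Of the 3 nuclear IkB genes, 2 rose, and Nfkbiz had the largest difference of the family. Nfkbiz encodes IkB zeta, which mouse macrophages need for late LPS-induced genes such as Il6. It read 11.95, 10.56 and 12.11 in WT LPS cells, against 7.98, 8.56 and 7.65 in WT unstimulated cells. Replicate 2 was the lowest of the LPS-treated cultures and the highest of the unstimulated ones, and the groups were still 2.00 apart. Nfkbiz rose 11.1-fold (log2 difference 3.47, SE 0.40, 95% confidence interval 2.55 to 4.40, limma adjusted p = 0.00205), which ranked 25 among the 19938 genes by size of rise. Its interval lay above those of the other 9 genes, the nearest being Nfkbia at 1.46 to 2.13. Bcl3, which binds homodimers of the p50 and p52 subunits, read 11.66, 11.06 and 11.56 in WT LPS cells, against 10.01, 10.32 and 9.89 in WT unstimulated cells. It rose 2.55-fold (1.35, SE 0.20, limma adjusted p = 0.00568), again without overlap.

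Nfkbid, whose product IkBNS restrains Il6 in mouse macrophages, was the exception. It read 10.41, 9.58 and 10.46 in WT LPS cells, against 9.23, 9.53 and 9.23 in WT unstimulated cells. Replicates 1 and 3 stood well above the unstimulated values, but WT LPS replicate 2 was only 0.05 above WT unstimulated replicate 2. The difference of 0.82 (SE 0.23, 1.76-fold) did not pass the test (limma adjusted p = 0.0546), and without WT LPS replicate 2 it was 1.10 with an adjusted p of 0.00236. Of the 5 genes with a kB match, 4 were called after LPS, and so were the 3 genes whose windows held none.

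**Figure D1:**
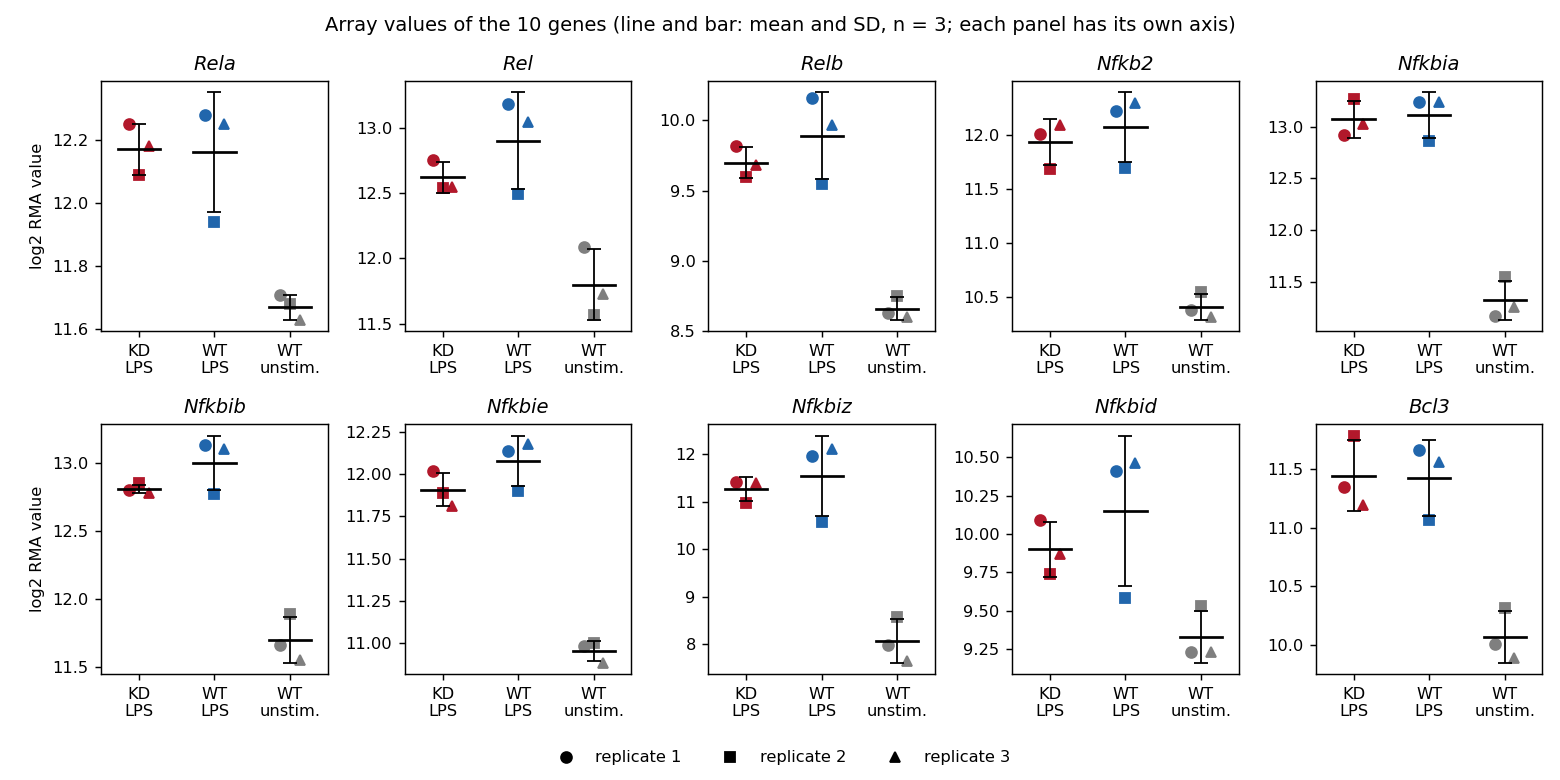
Log2 RMA value of each of the 10 genes (vertical axes, 1 scale per panel) in KD LPS, WT LPS and WT unstimulated cells, with a symbol for each replicate number and the mean and SD of 3 arrays. In every panel the 6 LPS-treated arrays lie above the 3 unstimulated arrays, and the square of WT LPS replicate 2 is the lowest of its group.

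Between knockdown and wild-type cells after LPS, none of the 10 genes passed the test. The background was 0.762% of all genes called between KD LPS and WT LPS cells, or 2.75% in the paired fit, which takes the replicate number as a block. None of the 10 genes had an unadjusted p under 0.05 in the limma fit without the block, where 5.79% of all genes did on the lower side and 7.32% on the higher. In the paired fit 1, Rel, did (limma adjusted p = 0.279). The log2 differences ran from -0.29 to 0.02, with a median of -0.18 against -0.028 over all genes. The KD LPS and WT LPS values overlapped for all 10 genes, as they did for most genes measured. Over all genes the 3 KD LPS values lay above the 3 WT LPS values for 8.21% and below them for 8.38%.

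Among the subunits, Rel read 12.75, 12.54 and 12.55 in KD LPS cells, and the WT LPS values given above span that range. The log2 difference of Rel was -0.29 (SE 0.19, 95% confidence interval -0.73 to 0.16, limma adjusted p = 0.58). Relb read 9.82, 9.60 and 9.68 in KD LPS cells and had a difference of -0.19 (interval -0.52 to 0.14). Nfkb2, at 12.01, 11.68 and 12.09 in KD LPS cells, differed by -0.14 (interval -0.52 to 0.25). The tightest comparison among the subunits was that of Rela, which read 12.25, 12.09 and 12.18 in KD LPS cells. Its difference was 0.02 with an interval of -0.20 to 0.24, that is, between 0.87-fold and 1.18-fold of the wild-type level. The missed tests do not show equal levels, and each interval gives the sizes these arrays leave possible.

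None of the cytoplasmic inhibitors passed the test either. Nfkbia read 12.92, 13.27 and 13.02 in KD LPS cells, on both sides of the wild-type mean of 13.11, and the difference was -0.04 (interval -0.37 to 0.29). Nfkbib read 12.80, 12.85 and 12.78 in KD LPS cells, a spread far smaller than that of the WT LPS cells, and differed by -0.19 (interval -0.46 to 0.08). Nfkbie, at 12.02, 11.89 and 11.81 in KD LPS cells, differed by -0.17 (interval -0.38 to 0.04) and had the smallest adjusted p of the 10 genes (0.488 in limma). For the cytoplasmic inhibitors the intervals thus reached no lower than 0.729-fold, that of Nfkbib.

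The nuclear IkB genes were the least precisely placed. Nfkbiz read 11.41, 10.97 and 11.39 in KD LPS cells, inside the wide WT LPS range, and its difference of -0.28 (SE 0.40) had an interval of -1.20 to 0.65, or 0.434-fold to 1.56-fold. Nfkbid read 10.09, 9.74 and 9.87 in KD LPS cells and differed by -0.25 (interval -0.76 to 0.27). Bcl3 read 11.34, 11.78 and 11.19 in KD LPS cells, of which replicate 2 was the highest value of all 9 arrays. Its difference was 0.01 (interval -0.45 to 0.48).

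The sign of these differences turned with the replicate number. In arrays numbered 1 and in arrays numbered 3, the KD LPS value was below the WT LPS value of the same number for 10 of 10 genes, with medians of -0.32 and -0.34 against -0.042 and -0.002 over all genes. In arrays numbered 2, 8 of the 10 were above and the other 2, Nfkb2 and Nfkbie, were at -0.01, with a median of 0.12 against 0 over all genes. The widest span was that of Nfkbiz, at -0.54, 0.42 and -0.72 for numbers 1 to 3, followed by Bcl3 at -0.31, 0.72 and -0.36. The genes share arrays, so the 10 signs are not independent observations.

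Replicate 2 stood apart in the wild-type groups as well. WT LPS replicate 2 was the lowest of its group for 10 of 10 genes, as it was for 46.6% of all genes, by a median of 0.53 under the mean of the other 2 arrays. WT unstimulated replicate 2 was the highest of its group for 8 of 10 genes, as it was for 33.5% of all genes, the exceptions being Rel and Rela. The LPS difference between wild-type arrays of the same number therefore had a median over the 10 genes of 1.5 for number 1, 0.89 for number 2 and 1.45 for number 3. Its SD over all genes was likewise smaller for number 2, at 0.37 against 0.53 and 0.49 for numbers 1 and 3.

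Without WT LPS replicate 2, 10 of 10 genes rose after LPS in wild-type cells and all 10 knockdown differences were negative, from -0.77 for Nfkbiz to -0.09 for Rela, but none passed the test (limma adjusted p from 0.0882 to 0.626). Without the 3 arrays numbered 2, a setting chosen after seeing the data, the knockdown differences ran from -0.63 for Nfkbiz to -0.05 for Rela, with adjusted p from 0.0581 to 0.735.

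**Figure D2:**
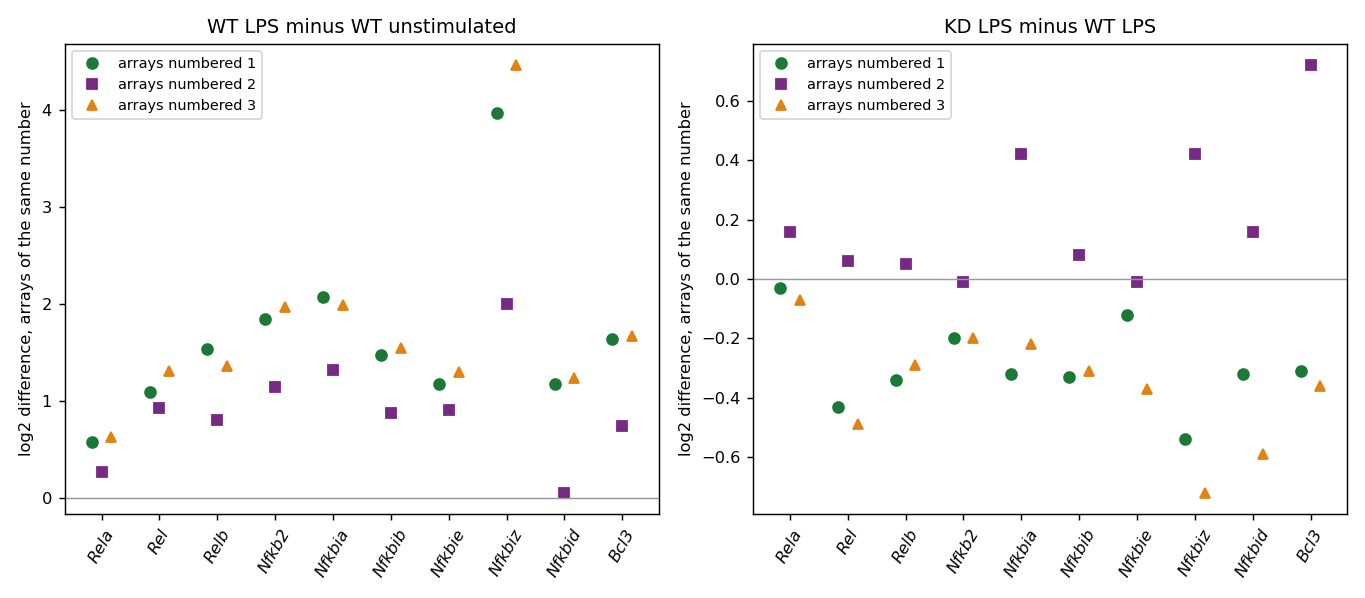
Log2 difference between arrays of the same replicate number for each gene, WT LPS minus WT unstimulated on the left and KD LPS minus WT LPS on the right, with a symbol per number. On the left the squares of number 2 are the lowest for each gene, and on the right the squares lie above both other symbols for each gene.

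Marker genes of cell types were read beside these values, as sums of signal on the linear scale. Of 10 dendritic cell markers 9, among them Itgax, Zbtb46 and Cd74, were brighter than the median gene, and Flt3 was dimmer. Their sum stood at 28979, 12436 and 13566 for replicates 1 to 3 of KD LPS and 44605, 31523 and 39866 of WT LPS, with 45607, 27996 and 38251 of WT unstimulated cells. The sums mainly follow the brightest of the 10, Cd74, H2-Ab1 and Itgax. Their means were 12.72, 11.24 and 12.46 in KD LPS cells and 13.76, 13.39 and 12.94 in WT LPS cells. None of the 10 dendritic cell markers was called by limma between KD LPS and WT LPS cells. At an unadjusted p under 0.05, 7 were lower, as were 5.79% of all genes. In the paired fit 6 were lower, namely Batf3, Ccr7, Ciita, H2-Ab1, Irf4 and Irf8, against 1.24% of all genes. Against WT unstimulated cells 2 of the 10 were called lower in KD LPS cells, where 6.64% of all genes were. They were Irf4 (-2.38, SE 0.59, limma adjusted p = 0.0377) and Irf8 (-1.12, SE 0.20, adjusted p = 0.011). Other marker lists held such calls too. Csf1r, a macrophage marker, was called lower (-0.64, SE 0.14, limma adjusted p = 0.0207). So was Kit, on the mast cell and progenitor lists (-2.76, SE 0.35, limma adjusted p = 0.00269). Cd14, a macrophage marker, was called higher (1.86, SE 0.36, limma adjusted p = 0.0151), as were 4.23% of all genes. The 7 measured macrophage markers summed to 38162 to 39733 in KD LPS cells and 36882 to 43023 in WT LPS cells, with Cd163 the dim one. None of the 7 was called between these 2 groups, although at an unadjusted p under 0.05 Csf1r was lower in KD LPS cells (-0.65, SE 0.14) and Mertk was higher (0.71, SE 0.26). The 8 markers of mast cells and basophils summed to 1384 to 2109 in KD LPS cells and 5876 to 6853 in WT LPS cells. In WT unstimulated cells they summed to 2309 to 3964. Hdc, named after its values were seen, was the brightest of them in WT LPS cells (mean 12.16). It rose after LPS in wild-type cells by 3.23 (SE 0.52, limma adjusted p = 0.00758). None of the 8 was called between KD LPS and WT LPS cells. On the lower side 5 had an unadjusted p under 0.05 (5.79% of all genes). In the paired fit 3 were lower (Cpa3, Kit and Gata2), against 1.24% of all genes. By their mean over the 9 arrays 5 of the 8, including Fcer1a and Ms4a2, were dimmer than the median gene. The summed signal of the 8 markers of neutrophils and their precursors was lowest in replicate 2 of each group. The sums were 18801, 2402 and 16003 for replicates 1 to 3 of KD LPS and 24011, 5050 and 15313 of WT LPS. In WT unstimulated cells they were 15170, 3205 and 4848. Elane and Mpo were instead lowest in replicate 3 of both wild-type groups. Elane read 10.29, 10.05 and 9.58 in WT LPS and 9.51, 9.31 and 8.59 in WT unstimulated cells. Mpo read 9.12, 8.49 and 7.82 in WT LPS and 8.01, 7.87 and 6.92 in WT unstimulated cells. In the paired fit 1 of the 8, Mpo, was lower in KD LPS than in WT LPS cells, against 1.24% of all genes. Mpo and Ly6g were dimmer than the median gene. B cell markers (4 measured) and T and NK cell markers (6 measured) were all dimmer than the median gene. The part of these cell types in the values of the 10 genes was not tested.

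Set against unstimulated wild-type cells, LPS-treated knockdown cells were higher in 9 of the 10 genes, all but Nfkbid, where 4.23% of all genes were called higher. For all 10 genes the 3 KD LPS values lay above the 3 WT unstimulated values, as they did for 12.2% of all genes. The 2 comparisons share the unstimulated arrays, so their values are set side by side only. For Nfkbiz the log2 difference from unstimulated cells was 3.19 in KD LPS cells and 3.47 in WT LPS cells (SE 0.40 each). That of Nfkbia was 1.75 in KD LPS and 1.79 in WT LPS cells, that of Nfkb2 1.51 in KD LPS and 1.65 in WT LPS cells, and that of Nfkbib 1.11 in KD LPS and 1.30 in WT LPS cells. The other subunits stood at 0.82 in KD LPS and 1.11 in WT LPS cells for Rel, at 1.04 in KD LPS and 1.23 in WT LPS cells for Relb, and at 0.50 in KD LPS and 0.48 in WT LPS cells for Rela. Nfkbie was at 0.95 in KD LPS and 1.12 in WT LPS cells, and Bcl3 at 1.37 in KD LPS and 1.35 in WT LPS cells. Nfkbid had a difference of 0.57 in KD LPS cells (SE 0.23, limma adjusted p = 0.168). The order of the group means was WT LPS, KD LPS and WT unstimulated for 8 of the 10 genes, an order that 29.9% of all genes had, and for Rela and Bcl3 the KD LPS mean was the highest. In each gene the upper 2 groups overlapped and the unstimulated group lay apart from both. The calls of Rel and Rela between KD LPS and WT unstimulated cells were the weakest, with adjusted p of 0.0312 and 0.0138 in limma. Rel was no longer called without KD LPS replicate 1 (0.0995), 2 (0.0559) or 3 (0.0874), WT unstimulated replicate 2 (0.0829) or 3 (0.107), or WT LPS replicate 3 (0.0504). The call of Rela was lost without KD LPS replicate 1 (0.0507) or 3 (0.0553) or WT unstimulated replicate 3 (0.0599), and Nfkbid was called without WT LPS replicate 2 (0.0183).

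**Figure D3:**
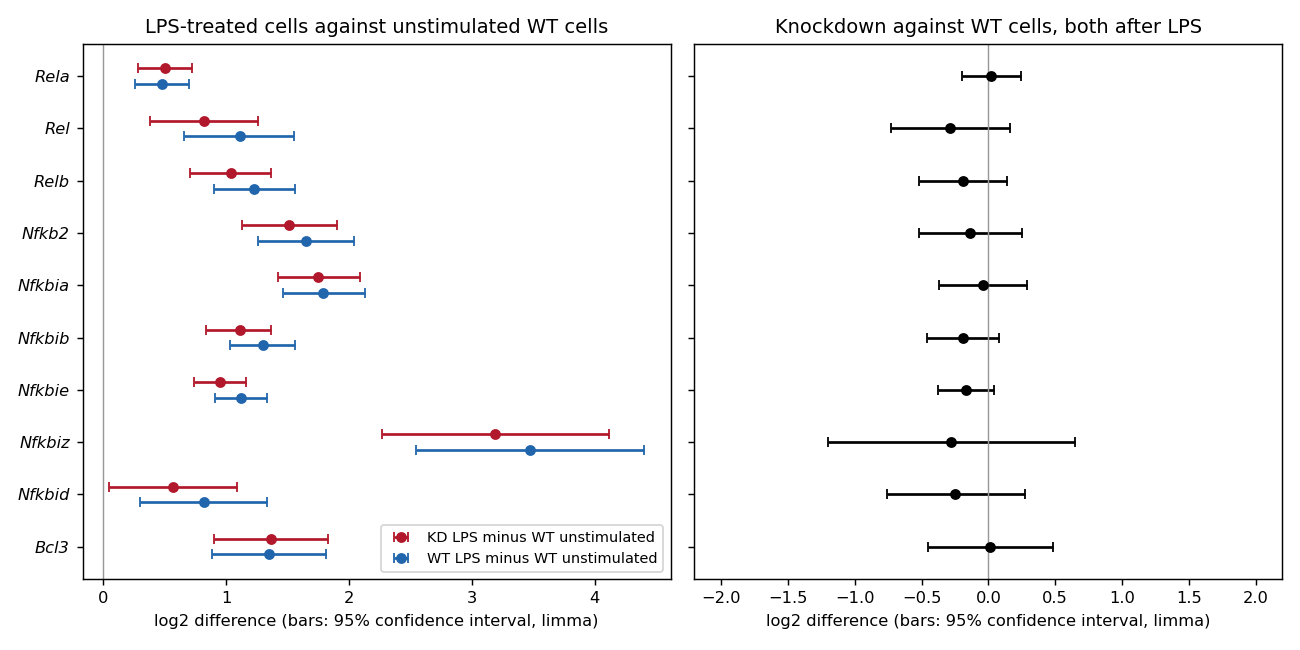
Log2 differences of the 10 genes with 95% confidence intervals, for KD LPS and WT LPS cells against WT unstimulated cells on the left and for KD LPS against WT LPS cells on the right. On the left Nfkbiz stands highest, at 3.19 in KD LPS and 3.47 in WT LPS cells, and on the right each interval includes 0.

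The rest of the pathway was read from gene lists. Of 12 measured genes of the IkB kinase complex and signalling upstream of it, 5 rose after LPS in wild-type cells and 1 fell. Over all genes 3.99% rose and 6.86% fell. The median of the 12 was 0.27, against 0.04 over all genes. Chuk, Irak4 and Ripk1 of this list were not among the genes measured. Ikbke, an IkB kinase relative of interferon induction, rose by 1.68 (SE 0.19, limma adjusted p = 0.00187). Irak2, a kinase below Toll-like receptors, rose by 1.13 (SE 0.13), and Map3k8, the TPL2 kinase, by 1.01 (SE 0.12). Irak1, named after its values were seen, was the 1 that fell (-0.42, SE 0.10, limma adjusted p = 0.0346), and its call was lost without any one of 5 arrays: WT LPS replicate 1 or 3, WT unstimulated replicate 1 or 2, or KD LPS replicate 1. None of the 12 was called between knockdown and wild-type cells after LPS. At an unadjusted p under 0.05, 3 were lower, as were 5.79% of all genes. The nearest was Ikbkb, the kinase that phosphorylates IkB alpha, at 10.28, 10.23 and 10.28 in KD LPS cells, against 10.68, 10.55 and 10.72 in WT LPS cells. The groups did not overlap, and the difference was -0.39 (SE 0.07, limma adjusted p = 0.0578). Without WT LPS replicate 2, Ikbkb was called, at -0.44 with an adjusted p of 0.0345.

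After LPS in wild-type cells, where 3.99% of all genes rose, 1 of the 9 measured genes of IkB ubiquitination and proteasome targeting rose. This was Fbxw11, a receptor subunit of the ligase that recognises phosphorylated IkB (0.45, SE 0.09, limma adjusted p = 0.0135), and it was not called without WT LPS replicate 3 or WT unstimulated replicate 3. Btrc, another such receptor subunit, named after its values were seen, did not pass the test (-0.23, SE 0.08, limma adjusted p = 0.0929). In KD LPS against WT unstimulated cells Btrc was called lower (-0.46, SE 0.08, limma adjusted p = 0.00753), as were 6.64% of all genes. Fbxw11 was called higher there (0.56, SE 0.09, limma adjusted p = 0.00517), as were 4.23% of all genes. None of the 9 was called between KD LPS and WT LPS cells. At an unadjusted p under 0.05 there was 1 higher and 1 lower, against 7.32% and 5.79% of all genes. The nearest was Uba3, a subunit of the NEDD8-activating enzyme, at 0.31 (SE 0.09, limma adjusted p = 0.153). Of the 16 ubiquitin editors and brakes, 6 rose after LPS and none fell, against 3.99% and 6.86% of all genes. Their median was 0.09 (0.04 over all genes). Tnfaip3, the A20 ubiquitin editor and a classical feedback gene, rose by 2.68 (SE 0.19, limma adjusted p = 0.000363). Its partner Tnip1 rose by 1.57 (SE 0.15), and Tank, a regulator of TRAF signalling, by 0.96 (SE 0.08). Between KD LPS and WT LPS cells no brake was called by limma. None had an unadjusted p under 0.05, where 5.79% of all genes did on the lower side and 7.32% on the higher. The nearest, Tnip2, differed by 0.20 (SE 0.10, limma adjusted p = 0.468).

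CD40 and related receptors release RelB with p52 through the noncanonical pathway. Of its 9 measured genes, 4 were higher after LPS in wild-type cells and none lower, against 3.99% and 6.86% of all genes. Cd40, the costimulatory receptor of dendritic cells, read 12.73, 12.12 and 12.85 in WT LPS cells, against 8.50, 8.20 and 8.26 in WT unstimulated cells. It rose 19.0-fold (log2 difference 4.25, SE 0.38, limma adjusted p = 0.000762). The adaptors Traf1 and Traf2 rose by 2.75 (SE 0.24) and 0.98 (SE 0.09). In KD LPS cells Cd40 read 11.41, 9.90 and 11.34, all below the 3 WT LPS values. The difference of -1.69 (SE 0.38, 95% confidence interval -2.56 to -0.81) did not pass the limma test (adjusted p = 0.0971) and passed it in the paired fit (0.0259). Traf2 read 10.06, 9.85 and 9.97 in KD LPS cells, against 10.43, 10.43 and 10.38 in WT LPS cells. The groups did not overlap, and the difference was -0.45 (SE 0.09, limma adjusted p = 0.0705 without the block and 0.0581 with it). Over the 9 genes of the pathway the median difference between KD LPS and WT LPS cells was -0.30, against -0.028 over all genes. None was called, 1 was lower in the paired fit, against 1.24% of all genes, and 4 were lower at an unadjusted p under 0.05, against 5.79% of all genes.

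Of 27 textbook NF-kB target genes, 23 rose after LPS in wild-type cells and none fell, against 3.99% and 6.86% of all genes. Their median was 2.24 (0.04 over all genes). The list was drawn from textbook knowledge, but with earlier results of these data known. It shares Birc3, Cd40, Csf2, Il6, Il12b, Tnfaip3 and Traf1 with other lists here. By p the leading ones were the chemokine gene Ccl4 (3.83, SE 0.11, limma adjusted p = 6.24e-06), the caspase-8 inhibitor gene Cflar (1.72, SE 0.08) and the adhesion gene Icam1 (1.60, SE 0.08). Against unstimulated wild-type cells, 21 of the 27 were higher in LPS-treated knockdown cells, as were 4.23% of all genes. The median of the 27 was 1.80. Between KD LPS and WT LPS cells none was called, and the median was -0.15 (-0.028 over all genes). At an unadjusted p under 0.05, 5 of the 27 were lower (5.79% of all genes). In the paired fit 2 were lower, Cd40 and Cd83 (1.24% of all genes). Cd83, the dendritic cell maturation marker, which was named after its values were seen, read 8.68, 7.44 and 7.94 in KD LPS cells, against 10.55, 9.39 and 9.50 in WT LPS cells and 8.60, 7.98 and 7.51 in WT unstimulated cells. The KD LPS values thus lay below all 3 WT LPS values and overlapped the unstimulated ones, and the difference from WT LPS cells was -1.79 (SE 0.42, limma adjusted p = 0.106 without the block and 0.0103 with it).

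**Figure D4:**
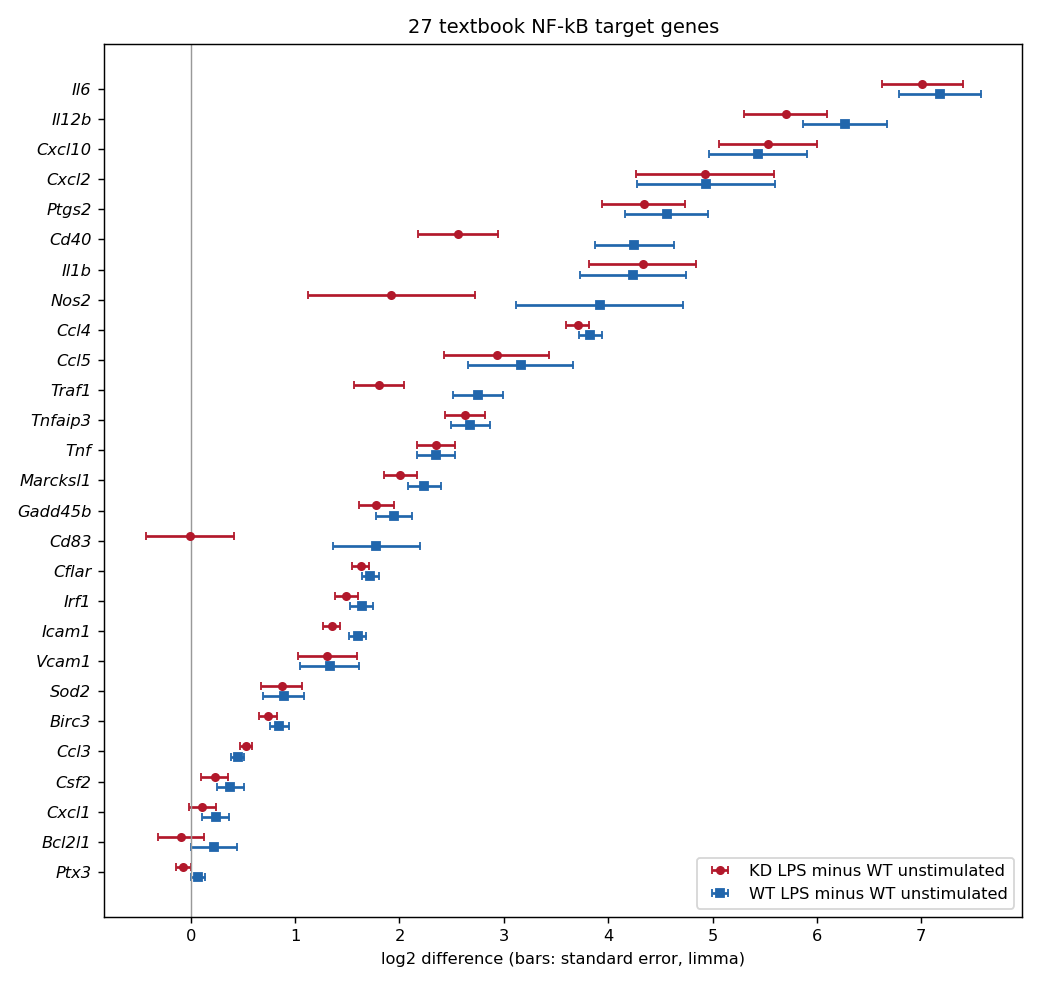
Log2 difference from WT unstimulated cells for the 27 textbook NF-kB target genes, with red circles for KD LPS cells, blue squares for WT LPS cells and bars of 1 standard error (limma). For most genes the pairs of bars overlap, and Cd40 (2.56 in KD LPS, 4.25 in WT LPS) and Cd83 (-0.01 in KD LPS, 1.78 in WT LPS) are among those whose bars do not meet.

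Of 8 genes known from mouse macrophages to need IkB zeta after LPS, 4 rose in wild-type cells, where 3.99% of all genes did. In the paired fit 5 rose, against 5.19% of all genes. The median of the 8 was 1.89. Il6 read 12.87, 11.73 and 12.91 in WT LPS cells, against 5.22, 5.85 and 4.90 in WT unstimulated cells, and rose by 7.18 (SE 0.39, limma adjusted p = 0.00019). Like Nfkbiz, it was lowest in replicate 2 of the WT LPS cells and highest in replicate 2 of the WT unstimulated cells. Il12b, the p40 subunit gene of interleukin-12, rose by 6.27 (SE 0.40). None of the 8 was called between KD LPS and WT LPS cells, and 2 were lower at an unadjusted p under 0.05. Over all genes that share was 5.79%. The nearest was Edn1, the endothelin-1 gene, at 8.63, 6.64 and 8.44 in KD LPS cells, against 10.28, 9.16 and 10.02 in WT LPS cells. The groups did not overlap, and the difference was -1.92 (SE 0.50, limma adjusted p = 0.137 without the block and 0.0442 with it). Of 8 measured coregulators, 1 rose after LPS in wild-type cells, where 3.99% of all genes did. This was Hdac1, a deacetylase that binds p65 (0.34, SE 0.09, limma adjusted p = 0.0498), a call that was lost without any one array. None of the 8 was called between KD LPS and WT LPS cells. At an unadjusted p under 0.05, 3 were lower (5.79% of all genes), and 1 was lower in the paired fit (1.24% of all genes). Crebbp, an acetyltransferase coactivator, differed by -0.45 between KD LPS and WT LPS cells (SE 0.15, limma adjusted p = 0.246 without the block and 0.0409 with it).

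The genes with the most similar pattern to each of the 10 over the 9 arrays were found by Pearson correlation, as a description of arrays that share their groups and replicate numbers. Sh3bp5 lay nearest to Nfkb2 (r = 0.998) and to Relb (0.991), Chac2 to Rel (0.986) and Fbrs to Rela (0.992). Slc16a10 lay nearest to Nfkbia (0.996), Birc3 to Nfkbib (0.997) and Icam1 to Nfkbie (0.993). Among the nuclear IkB genes Nfkbiz was followed most closely by Gadd45b (0.995), Bcl3 by Pip5k1a (0.985) and Nfkbid by Lif (0.975). Within the family the closest pair was Nfkb2 and Nfkbiz (0.995), and the most distant was Nfkbia and Nfkbid (0.820).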

How the data were processed

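RNA of mouse dendritic cells was measured on 9 Affymetrix arrays, 3 per group. The authors deposited 35556 probe sets as log2 values made with RMA, per the submitters' processing notes; its version and the probe definitions are not given in the sources used here. Array medians lay between 7.217 and 7.315, and the number of arrays limits the precision. Of the probe sets, 21789 name 1 gene in the platform annotation and were kept, 21698 of them with symbols updated by Entrez ID, and 1621 name several genes and 12146 none there. Where a gene had several probe sets (999 genes), the one with the highest mean was used, which left 19938 genes.

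Groups were compared with limma 3.58.1 in R 4.3.3 (lmFit and eBayes over all 9 arrays, 6 residual degrees of freedom, Benjamini-Hochberg adjustment over all genes), after the code was tested on simulated data. The labels give no litter or day for the replicate numbers. The deviations of same-numbered arrays from their group means correlated at 0.138 to 0.481 in all 9 pairs of groups and numbers. Those of different-numbered arrays correlated at -0.414 to 0.254, which overlaps that range. The 3 deviations in a group sum to 0, which lowers the values for different numbers. Same-numbered arrays were on this basis treated as pairs in a paired fit, which has the number as a block. Whether the numbers mark real pairs was not tested. Where nothing else separates the cultures, the p-values measure the spread between these cultures. The alternatives were this block, leaving out each array, median centring, quantile normalization, the lowest-mean probe set, a filter on dim genes, another variance model and fits of only 2 groups; leaving out a replicate number from every group was added after seeing the data.

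The 10 genes and all lists were chosen with earlier results of these data known. Named beside the 10 genes were Kdm4d, in each list the called genes with the 3 smallest p (or, with none called, the 1 with the smallest p) and the gene nearest in pattern to each of the 10. Motifs were searched in RefSeq promoter windows (GRCm38.p6), and protein features were not analysed here.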

Additional observations from a re-analysis of the deposited data

How the results depend on the processing

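With the replicate number as a block, 9, 0 and 9 of the 10 genes were called for WT LPS minus WT unstimulated, KD LPS minus WT LPS and KD LPS minus WT unstimulated, the same counts as without the block, and no call of the 10 genes changed. Leaving out 1 array gave 7 to 10, 0 to 0 and 7 to 10. Without replicate 1, 2 or 3 of every group, which was added after seeing the data and leaves 2 arrays per group, the first comparison called 0, 10 and 0 genes and the third 2, 10 and 0. Nfkbid was called after LPS in wild-type cells with dim genes left out (adjusted p = 0.0326) and with trend and robust variances (0.0468), and in KD LPS against WT unstimulated cells with only these 2 groups in the fit (0.0431). Without 1 array the difference between KD LPS and WT LPS cells ran from -0.09 to 0.08 for Rela, -0.17 to 0.04 for Nfkbia, -0.77 to 0.01 for Nfkbiz and -0.17 to 0.14 for Bcl3. It changed sign, without a call, for Rela at -0.02 without KD LPS replicate 1, -0.09 without WT LPS replicate 2, -0.05 without replicate 2 of every group and -0.01 after quantile normalization. For Nfkbia it was 0.02 without WT LPS replicate 1 or 3, 0.04 without KD LPS replicate 1, and 0.10 and 0.05 without replicate 1 and 3 of every group. For Nfkbiz it was 0.01 without WT LPS replicate 3, and for Bcl3 -0.17 without WT LPS replicate 2, -0.15 without KD LPS replicate 2, -0.34 without replicate 2 of every group and 0 after quantile normalization. The causes were not tested. Over all genes, calls between knockdown and wild-type cells after LPS were 80 higher and 72 lower, against 301 and 247 with the block, 14 and 19 with only the 2 groups, 111 lower after quantile normalization, and 11 to 257 higher and 7 to 126 lower without 1 array. Calls after LPS in wild-type cells without 1 array were 393 to 1246 higher (796 with all) and 475 to 2178 lower (1368 with all).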

Other observations

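Markers of progenitors (5 measured) summed to 1349, 846 and 1009 in KD LPS replicates 1 to 3, 2428, 1794 and 1670 in WT LPS and 3315, 2933 and 2433 in WT unstimulated cells. None of the 5 was called between KD LPS and WT LPS cells by limma. In the paired fit 2, Kit and Gata2, were lower, against 1.24% of all genes. Markers of red cells and megakaryocytes (4 measured) summed to 7535, 5169 and 5605 in KD LPS replicates 1 to 3. The sums were 7920, 12861 and 11925 in WT LPS and 6189, 15104 and 10928 in WT unstimulated cells. They mainly follow Pf4, with means of 12.45 in KD LPS, 13.32 in WT LPS and 13.23 in WT unstimulated cells. Itga2b stood at 7.53, 7.69 and 7.65 in the same order, and Klf1 and Epor were dimmer than the median gene. None of the 4 was called between KD LPS and WT LPS cells in either fit.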
